A study of Mus musculus with 12 samples.

Results

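Transcripts of 10 secreted growth factors by which somatic cells of the testis support germ cells were followed through newborn mouse testis: Gdnf, Kitl, Dhh, Inhba, Cxcl12, Pdgfa, Fgf2, Fgf9, Csf1 and Bmp4. They were chosen by gene name for their known role, with earlier results of these data known. Each name matched exactly 1 row among the 54532 genes of the expression tables. The mice carried Tg(Pou5f1-EGFP)2Mnn, a transgene in which Pou5f1 (OCT4) regulatory sequence drives green fluorescent protein (GFP) in germ cells. Dams received dexamethasone (dex), a synthetic agonist of the glucocorticoid receptor, on embryonic days E17.5 and E18.5, and the pups received it at postnatal day 0 (PN0), each time at 10 μg per gram of body weight, while controls of the same strain received saline on the same schedule. Testes were taken at PN1, freed of the tunica and sorted by GFP. Germ cells were taken from the GFP-positive gate and somatic cells from the GFP-negative gate, of dex and of saline testes, which gave 4 groups with 3 libraries each. Each library was made from pooled animals of separately dosed litters, so the values are averages over animals. The GFP-negative fraction holds every somatic type of the testis together, and in such bulk samples fewer cells of a type and less RNA per cell cannot be told apart.

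Germ cells of the newborn testis lie enclosed with Sertoli cells in cords, which are wrapped by peritubular cells and surrounded by Leydig cells, other stroma, vessels and macrophages. Sertoli cells secrete GDNF, which binds the co-receptor GFRA1 and signals through the kinase RET to maintain spermatogonial stem cells, and they present KIT ligand (Kitl) to KIT on germ cells. The chemokine CXCL12 attracts germ cells that carry CXCR4. Other ligands act mainly or in part among the somatic cells. Desert hedgehog (Dhh) from Sertoli cells acts on Patched receptors of Leydig and peritubular cells, PDGFA acts on PDGFRA of interstitial cells, activin A (a dimer of the Inhba product) acts on activin receptors of Sertoli and germ cells, and CSF1 maintains macrophages through CSF1R.

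Library totals lay between 18459692 and 25178477 counts. The summed level of 6 germ cell markers (led by Dazl and Ddx4) in saline testes was 2366 ± 108 CPM (counts scaled to library size) in the germ cells against 7.40 ± 0.438 CPM in the somatic cells (mean ± SD, n = 3 here and below). Sertoli markers (6 genes, Amh and Sox9 among them) summed to 3328 ± 122 CPM in saline somatic cells, and germ libraries held 1.23% of that level in saline and 0.837% in dex. For peritubular and stromal markers (8 genes, Acta2 and Myh11 among them) the germ share was 1.21% and 1.16%. It was higher in saline for the marker sums of Leydig cells (6.47%), macrophages (20.1%), endothelium (23.6%) and lymphocytes (202%). The labelled populations thus carried their own defining markers.

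Compared per length of transcript, as FPKM (fragments scaled to transcript length and library size), the somatic cells of saline testes held 6 of the 10 ligand transcripts at a mean between 18.1 and 41.0. Pdgfa (41.0 ± 2.74 FPKM) and Cxcl12 (40.0 ± 4.17 FPKM) headed the order, and the libraries of these neighbours overlapped. Inhba followed at 30.7 ± 3.91 FPKM, Dhh at 25.9 ± 2.44 FPKM and Gdnf at 23.9 ± 1.36 FPKM, again with each neighbour in the order overlapping the next. Kitl lay below them at 18.1 ± 2.93 FPKM and did not overlap Gdnf. A lower tier held Fgf2 at 4.61 ± 0.952 FPKM, Csf1 at 4.42 ± 0.280 FPKM and Bmp4 at 3.99 ± 0.514 FPKM, which overlapped in that order. Fgf9, a factor of early testis formation, stood last at 0.183 ± 0.0351 FPKM from 14 to 25 counts per library. In dex somatic cells Cxcl12 (58.6 ± 7.10 FPKM) and Inhba (43.9 ± 5.10 FPKM) stood above Pdgfa (38.7 ± 0.941 FPKM), with no overlap between these neighbours, and the order of the other 7 was the same as in saline.

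**Figure D1:**
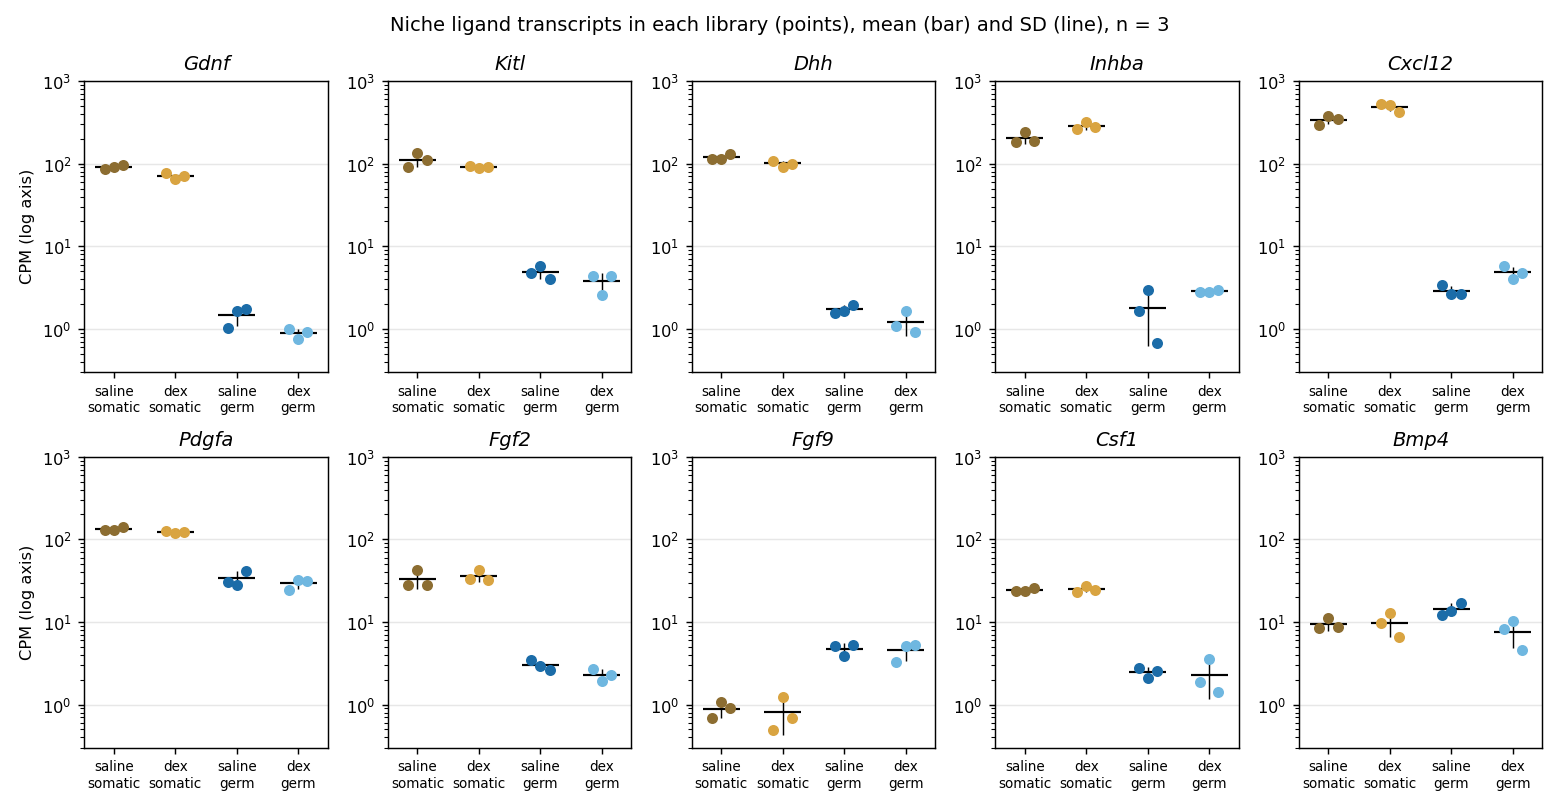
Level of each ligand transcript in CPM (log axis) in the 12 libraries, with points for libraries, bars for group means and vertical lines for SD (n = 3). 8 of the 10 ligands sit higher in both somatic groups than in both germ groups, Fgf9 sits higher in germ cells, and Bmp4 overlaps between the populations in dex.

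Next, the comparison of germ with somatic cells asked which population carries each ligand. In saline 8 of the 10 ligands were lower in germ cells and 2 were higher (edgeR quasi-likelihood test with Benjamini-Hochberg adjustment over all genes, called at an adjusted p of 0.05 or less). Among all 18870 genes tested 36.7% were called lower and 39.8% higher in germ cells. Cxcl12 and Inhba differed the most, each by -6.94 on the log2 scale (SE 0.14 and 0.28, adjusted p = 2.91e-12 and 4.78e-10). Germ cells held 0.847% and 0.864% of their somatic level, which is below the 1.23% of the Sertoli marker sum. Single Sertoli markers ran from 0.611% (Rhox8) to 4.74% (Wt1) in saline. Dhh (1.45% of the somatic level) and Gdnf (1.61%) were close to the share of the Sertoli sum too, at 19 to 43 counts per germ library. The part of somatic RNA in these counts was not tested. Kitl stood at 4.30%, Fgf2 at 9.15%, Csf1 at 10.1% and Pdgfa at 25.2% of the somatic level, with log2 differences of -4.60, -3.51, -3.36 and -2.05. Of these, Kitl lay within the range of the single Sertoli markers. Pdgfa was also the ligand with the highest FPKM in germ cells (10.8 ± 2.38 FPKM in saline). Its germ share was above that of the Sertoli and peritubular marker sums but near the endothelial and macrophage sums. The peritubular, endothelial and macrophage sums mix unlike genes. Single peritubular and stromal markers in saline ran from 0.334% (Acta2) to 70.8% (Tagln) of the somatic level, a range that includes the share of Pdgfa. In saline single endothelial markers ran from 10.4% (Cdh5) to 158% (Pecam1) of the somatic level. Single macrophage markers ran from 1.12% (C1qb) to 56.1% (Mrc1). The part of somatic RNA in these 4 ligands was not tested either.

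Fgf9 and Bmp4 went the other way. Fgf9 measured 5.17, 3.90 and 5.22 CPM in replicates 1, 2 and 3 of saline germ cells, and the somatic libraries of the same treatment had 0.689, 1.08 and 0.905 CPM. The germ libraries were all higher, by 2.34 ± 0.35 on the log2 scale (± SE, adjusted p = 6.64e-05). In dex the difference was 2.40 ± 0.45 (adjusted p = 0.000347). Bmp4, a BMP ligand with roles in germ cell specification, measured 12.1, 13.7 and 17.1 CPM in saline germ cells, against 8.42, 11.2 and 8.58 CPM in their somatic counterparts. Its difference of 0.54 ± 0.20 passed the test (adjusted p = 0.0245) but not in 4 of 15 alternative analyses, whose adjusted p reached 0.128. In dex Bmp4 was not called between the populations (-0.42 ± 0.32, adjusted p = 0.258), so that 1 ligand was higher and 8 were lower in germ cells, where 40.5% and 35.7% of all genes were.

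The receptors of these ligands, a list of 22 genes, were spread over both populations. In saline 7 were higher in germ cells and 13 were lower, beside 39.8% and 36.7% of all genes. The remaining 2 (Acvr2a and Bmpr1a, type II and type I receptors of the activin and BMP families) were not called. Both parts of the GDNF receptor were far higher in germ cells. In saline Gfra1 measured 374 ± 42.2 CPM in germ cells against 0.645 ± 0.187 CPM in somatic cells, and Ret measured 783 ± 50.2 CPM in saline germ cells. Counts of Ret in the saline somatic libraries were 0, 25 and 6, so its fitted difference of 10.59 on the log2 scale rests on few somatic counts, while that of Gfra1 was 9.12 ± 0.17. Ligand and receptor of this pair therefore lay in opposite populations, with Gdnf at 23.9 FPKM and Ret at 0.0629 FPKM in somatic cells against 0.401 and 115 FPKM in germ cells.

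KIT, the receptor of Kitl, was higher in germ cells too (Kit, 12.9 ± 0.694 FPKM against 1.03 ± 0.0786 FPKM in somatic cells, log2 difference 3.52 ± 0.11, adjusted p = 6.84e-11). For Cxcl12 the signalling receptor Cxcr4 was higher in germ cells (1.43 ± 0.18) and the scavenging receptor Ackr3 was lower (-2.41 ± 0.21). The activin receptor Acvr2b (2.77 ± 0.15), the BMP receptor Bmpr1b (2.19 ± 0.36) and the FGF receptor Fgfr3 (1.42 ± 0.21) completed the 7 that were higher in germ cells. Somatic cells were higher in the other 12 receptors called, with the receptors of PDGFA and CSF1 at the head. These were Pdgfra (germ against somatic -5.26), Csf1r (-4.64), the hedgehog transducer Smo (-2.28), Pdgfrb (-2.13), Fgfr4 (-2.09), Acvr1c (-1.98), Ptch1 (-1.96), Bmpr2 (-1.50), Fgfr1 (-1.31), Fgfr2 (-1.18), Acvr1 (-0.70) and Acvr1b (-0.33). Acvr1c shares exon bases with an antisense gene that has 91.8% as many counts and stayed under 1 CPM on average in every group, so its value is uncertain.

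Among genes that these signals are known to induce, all 19 listed targets differed between the populations in saline, 8 higher and 11 lower in germ cells, where 76.5% of all genes differed. Higher were Etv4 and Etv5, ETS factors downstream of GDNF and FGF (log2 difference 5.40 and 2.31), and the GDNF targets Bcl6b (5.92), Lhx1 (7.77) and Pou3f1 (6.86). Spry4 and Spred2 of the same list were higher as well, at 145% and 217% of the somatic level. Other ETS and FGF targets were lower, namely Etv1 (-6.91, at 0.449 ± 0.192 CPM in germ cells against 52.9 ± 3.33 CPM), Spry2 (-2.72), Dusp6 (-1.34) and Spry1 (-1.21). Also lower were the hedgehog targets Gli1 (-5.88) and Hhip (-6.44), as well as the BMP targets Id1 (-4.32), Id2 (-6.06) and Id3 (-5.13), whereas Id4 was higher (4.47).

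Dex against saline in somatic cells asked whether the ligand transcripts of the mixed somatic fraction differed after glucocorticoid exposure. Cxcl12 and Inhba rose in dex somatic cells by 1.46-fold and 1.43-fold, and Gdnf fell to 0.787 of its saline level, while the other 7 ligands did not pass the test. The 2 of 10 ligands called higher compare with 2.74% of all 16766 genes tested, and the 1 called lower with 1.17%. With library totals in place of TMM factors 379 of 708 calls were higher rather than 459 of 655, and Cxcl12, Inhba and Gdnf were called in the same directions. The dex and saline groups did not overlap for 5 of the 10 ligands (2 higher and 3 lower), which was true of 21.5% of all genes.

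Cxcl12 measured 526, 515 and 422 CPM in replicates 1, 2 and 3 of dex somatic cells and 294, 381 and 351 CPM in saline somatic cells. All dex libraries were higher, by 0.55 ± 0.10 on the log2 scale (adjusted p = 0.00419). Its call was kept when any single library was left out and was lost in the 3 fits on FPKM (adjusted p = 0.0656 to 0.135). Inhba measured 261, 319 and 276 CPM in dex and 185, 244 and 187 CPM in saline. Again the dex libraries were all higher, by 0.51 ± 0.10 (adjusted p = 0.00777). Without saline replicate 1 or saline replicate 3 the adjusted p of Inhba was 0.0597 and 0.0602, in the fits on FPKM it was 0.0792 to 0.157, and over all 12 libraries it was 0.142. Both ligands moved beside a rise of peritubular and stromal markers: 8 of 8 lay above 0, with Des, Dcn and Acta2 called higher and Myh11 at 0.23 (adjusted p = 0.239), and their sum was 2634 to 2876 CPM in dex against 1807 to 2223 CPM in saline. The part of these markers in the rise of Cxcl12 and Inhba was not tested.

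Gdnf measured 76.0, 65.2 and 70.1 CPM in dex somatic cells and 86.9, 91.9 and 96.1 CPM in saline somatic cells. Every dex library was lower, with a log2 difference of -0.35 ± 0.09, and the adjusted p of 0.0495 lay at the threshold. It was above the threshold in 12 of 15 alternatives, leaving out any 1 of the 6 libraries included (up to 0.207), although the direction was the same in all 15. The markers of Sertoli cells, a known source of GDNF, showed no call beside it: 0 of 6 were called in edgeR, none had an unadjusted p under 0.05, and their sum was 3057 to 3651 CPM in dex against 3216 to 3458 CPM in saline. Amh differed by 0.05 (adjusted p = 0.871) and Sox9 by 0.01 (adjusted p = 0.961).

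Dhh and Kitl, 2 further ligands of Sertoli cells, had values below saline that did not pass the test. Dhh measured 109, 92.2 and 100.3 CPM in dex and 114, 114 and 129 CPM in saline. The groups did not overlap, and the difference was -0.21 (interval of ± 2 SE from -0.40 to -0.025, adjusted p = 0.274). Kitl measured 92.4, 88.8 and 91.9 CPM in dex and 91.8, 135 and 109.5 CPM in saline, where saline replicate 1 lay among the dex libraries. Its difference was -0.26 (interval from -0.47 to -0.056, adjusted p = 0.213). Dhh shares exon bases with Rhebl1 on the same strand, which had 29.5% as many counts.

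The remaining ligands were near their saline level or too variable to call. Pdgfa measured 127, 121 and 121 CPM in dex and 129, 131 and 141 CPM in saline, a difference of -0.09 (interval from -0.25 to 0.075). For Csf1 the difference was 0.06 (interval from -0.19 to 0.32) and for Fgf2 it was 0.18 (interval from -0.13 to 0.48). Bmp4 differed by 0.09 with a wide interval from -0.39 to 0.56, and Fgf9, at 9 to 25 counts per somatic library, by -0.10 with an interval from -1.43 to 1.23. Changes of Fgf9 within that interval cannot be told from none, and larger ones could still miss the adjusted threshold. Pdgfa and Fgf2 each share exon bases with an antisense gene (6330403L08Rik with 21.5% and Nudt6 with 15% as many counts), and the strand setting of the counting is not stated.

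**Figure D2:**
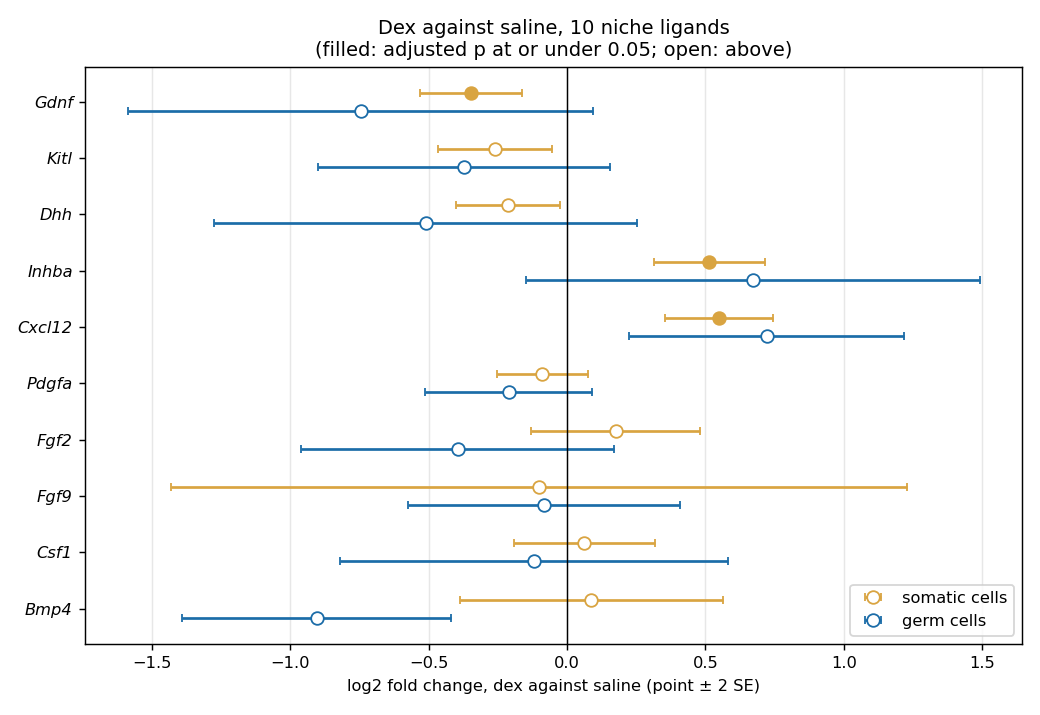
Log2 fold change of dex against saline for each ligand (point ± 2 SE) in somatic cells and in germ cells, filled where the adjusted p was 0.05 or less. Cxcl12 (0.55), Inhba (0.51) and Gdnf (-0.35) are filled in somatic cells, and no point is filled in germ cells, whose intervals are wider for most ligands.

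Sequences around the start sites of the 3 ligands called in somatic cells are given because dex acts through a receptor that binds DNA. The windows run from 250 bases before to 50 bases after a start site annotated by RefSeq on GRCm38.p6, are written 5′ to 3′ on the strand of the gene, and were chosen after the values were known. Capitals mark the glucocorticoid receptor half-site TGTTCT, the TATA box TATAAA and the GC box GGGCGG, each searched on both strands, so that a match on the other strand appears as its reverse complement. The windows lie at chr6:117168285-117168584 (Cxcl12), chr13:16011601-16011900 (Inhba) and chr15:7809798-7810097 (the first of 2 windows of Gdnf), all on the plus strand. In the authors' table, on mm10, the genes span chr6:117168535-117181367 (Cxcl12), chr13:16011851-16031621 (Inhba) and chr15:7810846-7837575 (Gdnf). The Gdnf window printed here thus ends before the start of the gene as the authors counted it. The second Gdnf window is not printed.
Cxcl12: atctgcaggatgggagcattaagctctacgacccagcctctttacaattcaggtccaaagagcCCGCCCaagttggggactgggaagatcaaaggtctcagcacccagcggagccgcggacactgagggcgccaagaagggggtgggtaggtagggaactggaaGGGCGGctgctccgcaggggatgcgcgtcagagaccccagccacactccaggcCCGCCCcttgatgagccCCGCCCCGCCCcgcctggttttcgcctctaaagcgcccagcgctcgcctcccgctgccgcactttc
Inhba: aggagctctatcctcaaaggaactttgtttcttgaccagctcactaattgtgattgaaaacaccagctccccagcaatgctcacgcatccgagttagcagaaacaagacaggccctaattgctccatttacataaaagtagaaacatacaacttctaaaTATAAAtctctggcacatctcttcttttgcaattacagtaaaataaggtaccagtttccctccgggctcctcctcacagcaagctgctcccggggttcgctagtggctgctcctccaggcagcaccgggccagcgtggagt
Gdnf: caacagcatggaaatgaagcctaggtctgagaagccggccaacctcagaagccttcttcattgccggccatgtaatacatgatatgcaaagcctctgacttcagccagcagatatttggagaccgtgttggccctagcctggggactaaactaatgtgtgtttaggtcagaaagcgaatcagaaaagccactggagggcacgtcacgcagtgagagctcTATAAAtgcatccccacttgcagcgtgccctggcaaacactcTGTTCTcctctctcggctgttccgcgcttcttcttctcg
The half-site was found once in the first Gdnf window, starting at base 12 of the transcript, and not in the second Gdnf window or in the windows of Cxcl12 and Inhba. Of all 32851 windows 19.0% held this half-site, 13.6% the TATA box and 35.7% the GC box. Inhba and the first window of Gdnf held a TATA box, and the Cxcl12 window held 5 GC boxes, counting overlapping matches. Among the other ligands only Csf1 had a half-site in its window, and 2 half-sites facing each other 3 bases apart were found in none of the 12 windows of the 10 ligands (0.00913% of all windows). These matches describe the letters of the windows and say nothing about binding.

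Receptors changed in dex somatic cells as well, 4 higher and 1 lower of 21 tested, beside 2.74% and 1.17% of all genes. The FGF receptors Fgfr4 (27.4 ± 3.92 CPM in dex against 8.35 ± 3.41 CPM in saline, log2 difference 1.75 ± 0.24, adjusted p = 0.000432), Fgfr2 (0.79 ± 0.12, adjusted p = 0.00112) and Fgfr1 (0.32 ± 0.08, adjusted p = 0.0310) rose, and so did Pdgfra (0.50 ± 0.11, adjusted p = 0.0132). Each of the 4 had all dex libraries above all saline libraries, although of 15 alternatives the call was lost in 9 for Fgfr1, 6 for Pdgfra, 3 for Fgfr2 and 1 for Fgfr4. Fgfr2 shares exon bases with Ctbp2, which has more counts. Csf1r, the receptor of Csf1 on macrophages, fell by 1.75 ± 0.28 on the log2 scale (adjusted p = 0.00200), a call lost in the 3 fits on FPKM (adjusted p up to 0.142). It measured 4.01, 3.36 and 2.92 CPM in dex and 8.72, 9.53 and 17.0 CPM in saline. Macrophage markers were lower with it, 6 of 6 below 0 with Lyz2 and Mrc1 called and Adgre1 and Cd68 at -1.26 and -0.50 (adjusted p = 0.310 and 0.451), and their sum was 21.0 to 28.1 CPM in dex against 41.8 to 71.1 CPM in saline. Csf1 itself, the ligand, differed by 0.06 only.

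Receptors of the 3 ligands called in somatic cells were not called there: Cxcr4 differed by -0.22 (adjusted p = 0.752), Ackr3 by 0.28 (adjusted p = 0.369), Gfra1 by 0.44 (adjusted p = 0.826, 10 to 21 counts per library), Acvr1b by -0.17, Acvr1c by -1.17, Acvr2a by -0.18 and Acvr2b by 0.06, and Ret was below the filter on low counts. Kit, at 5.02 ± 1.96 CPM in dex and 9.61 ± 0.878 CPM in saline, differed by -0.90 (adjusted p = 0.0963). Values of the other receptors were 0.07 (Ptch1), -0.15 (Smo), -0.28 (Fgfr3), 0.01 (Acvr1), -0.08 (Bmpr1a), -0.57 (Bmpr1b), -0.12 (Bmpr2) and 0.25 (Pdgfrb), none of them called. Across the 21 tested receptors the median was -0.08, beside -0.01 over all genes.

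**Figure D3:**
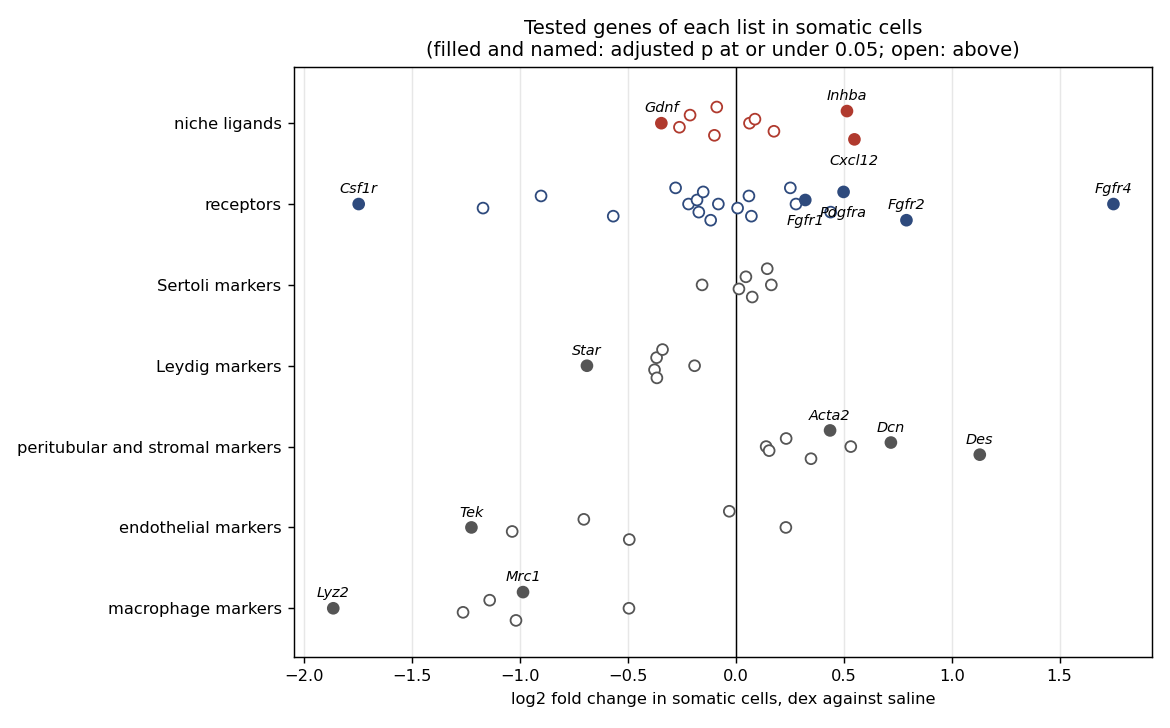
Log2 fold change of dex against saline in somatic cells for every tested gene of the niche ligands, their receptors and 5 marker lists, filled and named where the adjusted p was 0.05 or less. The 6 Sertoli markers lie near 0, the 8 peritubular and stromal markers lie above 0, and the 6 macrophage markers lie below 0 together with Csf1r.

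Helpers and inhibitors of these signals changed in 2 of 15 tested genes, both higher, where 2.74% of all genes were called higher. Gas1 (0.82 ± 0.09, adjusted p = 0.000108) and Boc (0.48 ± 0.10, adjusted p = 0.0111), both co-receptors of hedgehog ligands, rose in dex somatic cells, and 8 of 15 alternatives lost the call of Boc. The targets of these signals did not pass the test in 18 of 18 genes by edgeR (4 had an unadjusted p under 0.05), with the hedgehog targets Gli1 at 0.19 (adjusted p = 0.268) and Hhip at 0.32 (adjusted p = 0.104). None of 17 related ligands of the same families was called either, again with 4 at an unadjusted p under 0.05. In the other somatic marker lists most genes tested lay below saline. For Leydig cells 6 of 6 markers lay below 0, with Star called lower and Cyp11a1 at -0.19 (adjusted p = 0.841). The Leydig sums overlapped, at 84.3 to 171.5 CPM in dex against 119 to 199 CPM in saline. For endothelium 5 of 6 lay below 0, with Tek called lower and Pecam1 at -0.71 (adjusted p = 0.0686). Cdh5 was at 0.23 (adjusted p = 0.307). The endothelial sum was not lower, at 242 to 314 CPM in dex against 241 to 279 CPM in saline. In the lymphocyte list Cd79a was called lower, from 6 to 9 counts per dex library, and Cd3e and Cd3g were below the filter. Cd79a in saline germ cells stood at 293% of its somatic level. In the erythroid list Hbb-bs and Hbb-bt were called lower. Hba-a1 was not called (62.1 to 219 CPM in dex against 157 to 271.5 CPM in saline), and Hba-a2 was below the filter.

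Turning to germ cells, dex changed 0 of the 10 ligands by edgeR, where 1.25% of 18550 genes were called. With an unadjusted p under 0.05 there were 2, Bmp4 and Cxcl12, and DESeq2 called 1, Bmp4. Bmp4 measured 8.27, 10.1 and 4.54 CPM in replicates 1, 2 and 3 of dex germ cells and 12.1, 13.7 and 17.1 CPM in saline germ cells. All dex libraries were lower, with a log2 difference of -0.90 ± 0.24 (adjusted p = 0.0854). The adjusted p fell to 0.00916 with DESeq2, to 0.000447 without the filter on low counts and to 0.0371 without dex replicate 2. Cxcl12 measured 5.69, 4.02 and 4.78 CPM in dex and 3.39, 2.67 and 2.63 CPM in saline, a difference of 0.72 ± 0.25 (adjusted p = 0.177) at 0.990% of its somatic level.

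Gdnf stood at 0.987, 0.759 and 0.908 CPM in dex germ cells and 1.03, 1.65 and 1.76 CPM in saline germ cells, from 19 to 36 counts per library (-0.75 ± 0.42, adjusted p = 0.443). Together, 3 of the 10 ligands had germ groups that did not overlap (Cxcl12 higher, Gdnf and Bmp4 lower), beside 20.1% of all genes. The other differences were -0.37 (Kitl), -0.40 (Fgf2), -0.08 (Fgf9), -0.12 (Csf1), -0.51 (Dhh), 0.67 (Inhba) and -0.21 (Pdgfa), with adjusted p from 0.486 to 0.920. Sertoli markers moved in the germ libraries as well: 6 of 6 lay below 0 with a median of -0.58, none called, with Amh at -0.68 (adjusted p = 0.167) and Sox9 at -0.41 (adjusted p = 0.338), and their sum was 21.1 to 32.0 CPM in dex against 37.4 to 43.8 CPM in saline. Their part in the values of Gdnf, Kitl and Dhh in germ cells was not tested. Peritubular and stromal markers summed to 29.3 to 34.3 CPM in dex germ cells against 21.3 to 26.1 CPM in saline, with no overlap. Of the 7 tested, 6 lay above 0 with a median of 0.32 and none was called (Acta2 at 0.23, adjusted p = 0.787, and Myh11 at 0.04, adjusted p = 0.965). Their part in the values of Cxcl12 and Inhba in germ cells was not tested.

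Of the receptors in germ cells, Fgfr1 (0.44 ± 0.08, adjusted p = 0.0123) and Ptch1 (0.35 ± 0.08, adjusted p = 0.0351) rose in dex, 2 of 21 tested. Among all 18550 genes tested 0.739% were called higher and 0.507% lower. Fgfr1 measured 124, 132 and 141 CPM in dex germ cells and 99.8, 97.2 and 93.5 CPM in saline germ cells, with no overlap. The call of Ptch1 was lost in 10 of 15 alternatives and that of Fgfr1 in 7. Gfra1 measured 527, 425 and 491 CPM in dex and 371, 418 and 333 CPM in saline (0.35 ± 0.09, adjusted p = 0.0809). Ret differed by 0.19 ± 0.06 (adjusted p = 0.171), Kit by -0.25 ± 0.08 (adjusted p = 0.137), Cxcr4 by -0.05 ± 0.14 (adjusted p = 0.914) and Fgfr2 by 0.54 ± 0.13 (adjusted p = 0.0686). Among the 18 targets tested Bcl6b, a transcription factor induced by GDNF, fell by 0.45 ± 0.09 (118 ± 7.0 CPM in dex against 160 ± 18.8 CPM in saline, adjusted p = 0.0233, lost in 9 of 15 alternatives), and the other 17 were not called, including Etv5 (-0.06, adjusted p = 0.811) and Lhx1 (-0.35, adjusted p = 0.221). Inha, the inhibin alpha subunit, was called lower in germ cells (-0.90 ± 0.18, adjusted p = 0.0233, lost in 7 of 15 alternatives). Its level there was 1.21% of the somatic level in saline, about the share of the Sertoli marker sum.

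Whether dex acted differently on the ligands in the 2 populations was tested as a difference of differences over all 12 libraries. It passed for 0 of the 10 ligands by edgeR (0.827% of 20551 genes passed), and 1 had an unadjusted p under 0.05, Bmp4 at -0.95 (adjusted p = 0.306). DESeq2 called none of the ligands either. Cxcl12, Inhba and Gdnf, called in somatic cells alone, were thus not shown to respond differently in germ cells.

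Finally, for each ligand called in dex somatic cells the genes with the most similar pattern were found as those with the smallest root mean square difference in centred log2 CPM over the 12 libraries, among 13570 protein-coding genes. Near Gdnf lay Zeb2 (0.213) and Gata4 (0.223), of which Gata4 is a transcription factor of Sertoli and other somatic cells of the gonad. Cxcl12 lay nearest to the matrix genes Eln (0.280) and Lox (0.286) and to Gucy1a1 (0.283), a subunit of soluble guanylate cyclase. For Inhba they were Ifitm3 (0.229), Kcne1l (0.334) and Nr2f2 (0.347), a transcription factor of interstitial cells. Eln measured 888 CPM in dex somatic and 597 CPM in saline somatic cells, and Lox measured 193 and 111 CPM. These distances are descriptions over libraries that fall into 2 populations, and most of each pattern is the step between germ and somatic cells.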

How the data were processed

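RNA was sequenced in 12 libraries of sorted newborn mouse testis cells, 3 in each of 4 groups. Per the study's methods and the submitters' processing notes, the authors selected polyadenylated RNA, sequenced paired ends, aligned to mm10 with HISAT2 2.0.5 and counted reads per gene with featureCounts 1.5.0-p3. The annotation release and the strand setting are not given in the sources used here. The deposited count table holds raw counts per gene. The deposited FPKM table holds those counts scaled by the authors to gene length and library size. The authors' own comparisons of dex with saline, made with DESeq2 1.20.0, hold fold changes and p-values and were not used.

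Each comparison was fitted on the raw counts of its 6 libraries, and the difference of differences on all 12, with the quasi-likelihood test of edgeR 4.0.16 in R 4.3.3 (TMM factors, filterByExpr at a minimum count of 10, two-sided, Benjamini-Hochberg adjustment over all genes tested). Standard errors were obtained as the absolute log2 fold change over the root of the F statistic. CPM values use TMM factors over all 12 libraries. A count of 0 allows up to 3 counts, or 0.114 to 0.165 CPM by library, which covers counting error only. The procedure was tested on simulated data with known changes, set in genes with higher counts. A log2 change of 0.5 was recovered in 38 of 100 genes for dex in somatic cells and 45 of 100 in germ cells. For the difference of differences it was recovered in 2 of 100. A log2 change of 1 was recovered in 78, 83 and 57 of 100. Many changes of the size seen here could thus be missed. Overlapping genes were looked up in GENCODE M21.

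The alternatives were RLE factors, library totals, no filter, DESeq2 1.42.0, limma 3.58.1 with trend on log2(FPKM + 0.1) or log2(FPKM + 1), one fit over all 12 libraries, the replicate number as a block, and leaving out each library. The text names all 10 ligands and 22 receptors, up to 3 called genes with a mean of at least 1 CPM from each of the lists of helpers, targets and related ligands in a dex comparison, the first 2 genes of each marker list and the 3 nearest genes of each ligand called in a dex comparison. Further genes of these lists were named after their values were seen. The members and lists were chosen with earlier results of these data known. Each library pooled litters dosed separately. Some listed or near genes are not reported here and are left out of the counts.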

Additional observations from a re-analysis of the deposited data

Results flagged for a closer look

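Of the genes named, 3 markers but no ligand, receptor, helper, target or related ligand differed between the populations in their response to dex by the test of the difference itself (germ minus somatic, edgeR over 12 libraries). For Ddx4, a germ cell marker, the difference was 1.28 on the log2 scale (adjusted p = 0.0462), with -1.17 in somatic cells and 0.08 in germ cells, and the somatic value rests on a level near 1 CPM. For Pecam1, an endothelial marker that early germ cells also express, it was 1.05 (adjusted p = 0.0496), with -0.71 in somatic cells and 0.31 in germ cells. Mrc1, a receptor of macrophages, differed by 1.91 (adjusted p = 0.0149). It measured 7.08, 4.60 and 4.90 CPM in dex somatic cells against 8.81, 10.6 and 14.2 CPM in saline, and in germ cells it measured 10.3, 11.6 and 13.2 CPM in dex against 5.97, 8.0 and 4.83 CPM in saline, so that its libraries did not overlap in either population and moved in opposite directions (-0.99, adjusted p = 0.0333, and 0.89, adjusted p = 0.0508). Of 20 alternatives the test of the difference missed the threshold in 14 for Ddx4, 15 for Pecam1 and 4 for Mrc1.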

How the results depend on the processing

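Between germ and somatic cells the ligands kept direction and call in 146 of 150 alternative values in saline, where Bmp4 lost its call in 4, and in 150 of 150 in dex. For dex in somatic cells, 125 of 150 values did so, as the call was lost in 12 of 15 alternatives for Gdnf, in 6 for Inhba and in 3 for Cxcl12. The main analysis called 3 ligands and 655 genes there. Without the filter on low counts 1061 genes were called. The fits on log2(FPKM + 0.1), log2(FPKM + 1) and log2(FPKM + 0.1) with no filter called 251, 281 and 112 genes and 0 ligands, and the fit over all 12 libraries called 1 ligand, Cxcl12. Leaving out 1 library gave 1 to 2 ligands and 354 to 547 genes. The count was 354 without saline replicate 3, it was 383 when saline replicate 1 was absent, and removing dex replicate 2 gave 398.

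For dex in germ cells (0 ligands and 231 genes), 767 genes were called without the filter and 711 by DESeq2, each with 1 ligand, Bmp4. The same 3 fits on FPKM called 6, 12 and 0 genes, and the fit over all 12 libraries called 142. Leaving out 1 library gave 0 to 1 ligands (Bmp4 without dex replicate 2) and 49 to 265 genes. Removing saline replicate 1 gave 49 genes and removing saline replicate 2 gave 75, whereas 102 were called in the absence of dex replicate 3 and 115 in that of dex replicate 1. For the difference of differences (0 ligands and 170 genes), 706 genes were called without the filter, 648 by DESeq2, 57 on log2(FPKM + 0.1), 53 on the same with no filter, and 79 to 172 when 1 library was left out. With library totals in place of TMM factors 149 of 215 calls were higher for dex in germ cells (137 of 231 with TMM) and 148 of 221 for the difference of differences (85 of 170), and the median of all genes between germ and somatic cells moved from 0.07 to 0.21 in saline and from 0.12 to 0.30 in dex. Among the markers called in dex somatic cells Des kept its call in 15 of 15 alternatives, and the call was lost in 1 for Dcn and Lyz2, 4 for Acta2, 7 for Star, Tek and Mrc1, 8 for Cd79a, 9 for Hbb-bt and 10 for Hbb-bs. The causes of these shifts were not tested.

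Values that changed sign were uncalled before and after. With 1 library left out, Fgf9 ran from -0.54 to 0.15 and Bmp4 from -0.17 to 0.32 in somatic cells, and Fgf9 from -0.20 to 0.10 and Csf1 from -0.59 to 0.12 in germ cells. In the difference of differences Kitl ran from -0.22 to 0.15, Fgf9 from -0.21 to 0.50, Csf1 from -0.62 to 0.088, Inhba from -0.19 to 0.74 and Pdgfa from -0.22 to 0.087. On log2(FPKM + 1) that difference was 0.16 for Gdnf, 0.085 for Kitl, -0.30 for Cxcl12, -0.017 for Fgf9, 0.074 for Dhh and -0.32 for Inhba. This scale compresses the low germ levels.

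With the replicate number as a block, 669 genes and 2 ligands (Gdnf was lost, adjusted p = 0.0547) were called for dex in somatic cells, 65 genes and 0 ligands for dex in germ cells, and 90 genes and 0 ligands for the difference of differences. Same-numbered libraries deviated together with correlations of -0.0876 to 0.045, so the numbers were not taken as pairs. In saline each germ and somatic library correlated best with its own number (6 of 6), against 0 of 6 in dex. Low counts limit Fgf9 in somatic cells (9 to 25 per library) and, in germ cells, Inhba (14 to 73), Gdnf (19 to 36) and Dhh (19 to 43).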
